A study of Mus musculus with 13 samples.

Results

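Transcripts of the unfolded protein response and of the integrated stress response were followed in interscapular brown adipose tissue (iBAT), the thermogenic fat depot between the shoulder blades of the mouse. The set holds 10 genes named by function, namely Hspa5, Hsp90b1, Calr, Pdia4, Xbp1, Atf4, Atf5, Ddit3, Trib3 and Asns. They were found by matching each Ensembl identifier to its mouse symbol, among 42416 identifiers counted in every library. All 10 were among the 13360 genes that had more than 1 CPM (the count scaled to a library of 1 M counts) in 5 or more libraries and were therefore tested.

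Bulk RNA sequencing covered 13 libraries, each numbered as a replicate of its group. The 8 iFAXLKO libraries came from mice with loxP sites on both sides of Axl sequence and a Cre transgene, and the 5 WT libraries from floxed mice without Cre, so that WT mice carried the floxed allele too. All of them were fed a high-fat diet (HFD) with free access at room temperature and were given tamoxifen every 3 weeks, and the labels give no age. The study's supplementary legends describe them as female littermates. The Cre, per the study's methods, is Adipoq-CreERT2, which is driven by the adiponectin gene on a bacterial artificial chromosome and acts in adipocytes once tamoxifen is given, whereas the tissue sequenced also holds vessels, fibroblasts, immune cells and, in some dissections, muscle. The comparison asks how the loss of AXL, a receptor tyrosine kinase, from adipocytes alters brown fat under HFD.

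The endoplasmic reticulum (ER) folds secreted and membrane proteins, and when unfolded protein builds up there, the sensors IRE1, PERK and ATF6 start the unfolded protein response. IRE1 splices Xbp1 mRNA into a form that encodes an active transcription factor, ATF6 is cut to release another, and both raise genes for chaperones and for the disposal of misfolded protein. PERK is also a kinase of the integrated stress response, in which phosphorylation of eIF2α slows translation in general but favours that of Atf4 mRNA, and ATF4 then raises genes for amino acid supply, such as Asns, and the factors Atf5, Ddit3 and Trib3. Brown adipocytes are rich in mitochondria, and mitochondrial stress can reach the same pathway. Since IRE1 acts by splicing and the eIF2α kinases by translation, counts per gene show neither step directly.

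The letters by which these factors are known to recognise DNA were searched for in the promoter of each member, and the stretches that held them are shown so that the members can be grouped by the letters they share. Promoters were the 300 bases from 250 before to 50 after a gene's start in RefSeq (GRCm38.p6), and all 10 members had such a window, 11 windows in all. The ER stress response element (ERSE), bound by ATF6 and XBP1 together with NF-Y, was searched for on both strands as CCAAT and CCACG with 9 bases of any kind between them. It stood in 0.119% of the 32851 promoter windows of the table and in the windows of 3 members, Hspa5, Hsp90b1 and Calr. Starts are those of RefSeq, and the gene bounds from GENCODE given with each member differ from them. These bounds reach farther upstream for Hspa5, Hsp90b1, Asns and, slightly, Calr, so that the Hspa5 ERSE and the Asns core lie inside them. For Trib3 the bounds begin downstream of the RefSeq start, so that its core, though after that start, lies outside them. Each stretch is written 5′ to 3′ on the strand of the gene, with the element in capitals.
Hspa5 ERSE: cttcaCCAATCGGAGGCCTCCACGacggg
Hsp90b1 distal ERSE: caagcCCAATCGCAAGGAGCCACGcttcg
Hsp90b1 proximal ERSE: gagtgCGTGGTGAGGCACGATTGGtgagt
Calr ERSE: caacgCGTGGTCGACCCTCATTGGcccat
The Hspa5 stretch lies at chr2:34772020-34772048 on the plus strand, and its element spans the bases 65 to 47 before the start. The Hsp90b1 stretches lie at chr10:86705633-86705661 and chr10:86705528-86705556 on the minus strand, 212 to 194 and 107 to 89 bases before the start, and the proximal one holds the element on the strand opposite to the gene. The Calr stretch lies at chr8:84847070-84847098 on the minus strand, 162 to 144 bases before the start, again with the element on the opposite strand. Pdia4, the other ER chaperone of the set, had none in its window.

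The core of the C/EBP-ATF response element, through which ATF4 acts with C/EBP partners, was searched for as TGATGNAA on both strands. It occurred in 3.97% of all promoter windows and in those of Asns and Trib3 among the members. The core of the unfolded protein response element bound by XBP1, searched for as TGACGTG, occurred in 2.01% of all windows and in that of Hspa5 alone among the members.
Asns ATF core: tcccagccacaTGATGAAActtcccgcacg
Trib3 ATF core: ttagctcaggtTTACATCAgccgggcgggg
Hspa5 UPR core: gggcgtagcaaTGACGTGagttgcggagg
The Asns stretch lies at chr6:7693214-7693243 on the minus strand, with the core 23 to 16 bases before the start. The Trib3 stretch lies at chr2:152344028-152344057 on the minus strand, with the core on the opposite strand 14 to 21 bases after the start. The Hspa5 stretch lies at chr2:34771922-34771950 on the plus strand, with the core 157 to 151 bases before the start. A second form of the element, ERSE-II (ATTGG and CCACG with 1 base between them), stood in 0.0365% of all windows and in no member's. These matches describe letters only, and a window without a match says nothing of binding elsewhere. The members were named by their function in these pathways, so the shares of all windows give no test of enrichment.

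The same letters recurred in other genes of the pathways. ERSE stood in the windows of 4 of the 11 other ER chaperones and folding enzymes that had a window, Canx, Pdia6, Dnajc3 and Creld2, and of 2 of 12 genes of ER-associated degradation, Syvn1 and Derl3. ERSE-II stood in those of Dnajb11 and Herpud1. The C/EBP-ATF core stood in those of 5 of 7 cytosolic tRNA synthetases, Aars, Gars, Iars, Tars and Yars, which charge tRNAs with amino acids, and of Chac1, Vldlr and Fgf21 among 8 further signalling targets of ATF4. It stood in only 2 of 14 genes of amino acid supply, Slc7a11 and Pycr1, and also in Txndc5 among the folding enzymes, in Herpud1 of ER-associated degradation, and in Atf3 and Nupr1 among the sensors and transducers.

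Library totals ranged from 22.4 to 32.6 M counts, and mitochondrially encoded genes took 18.3% to 21.3% of them. A count of 0 allows up to 3 counts, or 0.0883 to 0.130 CPM, and such floors cover counting error only. Axl itself, the floxed gene, showed no lower level under the label iFAXLKO, with 33.1 ± 6.16 CPM (SD, n = 8, range 26.5 to 43.9) in these and 27.8 ± 3.82 CPM (SD, n = 5, range 23.5 to 33.8) in WT. Its log2 fold change was 0.25 (SE 0.13, edgeR adjusted p = 0.699), and 6 of 8 iFAXLKO values exceeded the mean of WT, so the labels are given here without a check by their target, and counts per gene do not show which exons of Axl were read. For this mouse model the study gives a western blot of AXL in the mature fraction of inguinal white fat, which is protein from another depot. Brown adipocyte markers (Ucp1, Cidea, Adipoq, Plin1, Fabp4, Ppargc1a and Elovl3) summed to between 14788 CPM (iFAXLKO 7) and 23454 CPM (WT 2), 6 of the 7 having a log2 fold change below 0 (median -0.07). Among them Adipoq, whose gene the Cre transgene is built on, was called higher in iFAXLKO at 0.66 (edgeR adjusted p = 0.0118, 8 of 8 libraries above the WT mean), and Elovl3 was at -0.69 (edgeR adjusted p = 0.474, 0 of 8). Markers of fibroblasts summed to between 515 and 1157 CPM in iFAXLKO and between 377 and 677 CPM in WT, all 7 having a log2 fold change above 0 (median 0.66, 0 called). Those of macrophages summed to between 90.7 and 189.9 CPM and between 80.6 and 117 CPM, all 6 above 0 (median 0.41, 0 called). In that direction, 7 of 7 fibroblast and 5 of 6 macrophage markers had an unadjusted edgeR p under 0.05, beside 3.84% of all genes tested. Skeletal muscle markers ran from 2.83 to 5535 CPM in iFAXLKO and from 22.01 to 4004 CPM in WT.

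No member was called between the groups. By edgeR's quasi-likelihood test, 0 of 10 had an adjusted p under 0.05, against 0.127% of all genes tested (0.0973% higher and 0.0299% lower), and 1 of 10, Atf5, had an unadjusted p under 0.05, against 7.38% of all genes. DESeq2 and limma-voom likewise called 0 of the 10. The CPM ranges of both groups overlapped for all 10 members, and 0.434% of all genes had ranges that did not. The log2 fold change, iFAXLKO over WT, was below 0 for 8 members and above 0 for Xbp1 and Pdia4, with a median of -0.11 beside -0.01 over all genes, of which 53.6% were below 0 and 46.4% above it. Adjusted p-values of the members ran from 0.641 to 0.981. In bulk tissue, fewer cells of a type and less RNA per cell cannot be told apart, and this holds for each value that follows.

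The order of the members was read from CPM per kb of exon, with the exons of all annotated transcripts of a gene merged. Merged exons can be longer than any transcript, as for Atf4, where 2358 bases cover the whole span of the gene. The order between genes is therefore approximate. Atf5 led with 122 ± 41.8 CPM per kb (SD, n = 13), followed by Calr with 110 ± 9.95 CPM per kb. Hsp90b1 and Hspa5 lay next at 55.1 ± 3.91 and 54.2 ± 4.65 CPM per kb, and Atf4 at 41.9 ± 9.91 CPM per kb. Lower in the order came Asns at 24.6 ± 3.21, Ddit3 at 16.3 ± 3.78, Xbp1 at 15.9 ± 2.11, Pdia4 at 13.7 ± 1.13 and Trib3 at 5.38 ± 2.79 CPM per kb. Among neighbours in this order, Calr and Hsp90b1 alone had ranges that did not overlap. Atf5 was above Calr in 7 of 13 libraries, Hsp90b1 above Hspa5 in 8, and Ddit3 above Xbp1 in 7, so the order within these pairs was not settled, whereas Atf4 was above Asns, and Asns above Ddit3, in all 13.

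**Figure D1:**
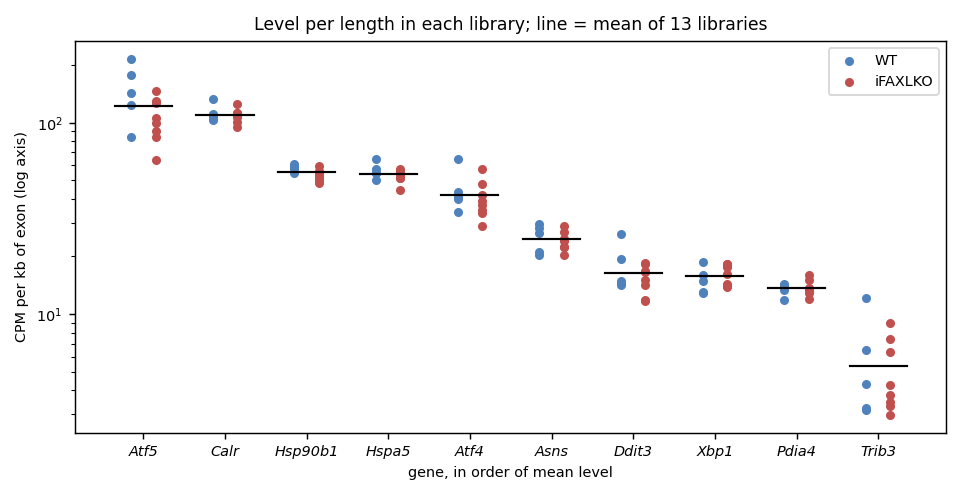
Level of each member per length, as CPM per kb of merged exon on a log axis, with 1 point per library in 5 WT (blue) and 8 iFAXLKO (red) libraries and a line at the mean of 13. Atf5 and Calr stand at the top near 122 and 110 CPM per kb and Trib3 at the bottom near 5.38, and the points of Atf5, Atf4 and Trib3 are spread more widely than those of the chaperones.

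The spread between mice of one group set the members apart more than the groups did. The within-group SD of log2 CPM was 0.68 for Trib3, wider than that of 96.7% of all genes tested, and 0.44 for Atf5, wider than that of 90.2%. It was 0.32 for Atf4 and 0.31 for Ddit3. The chaperones varied least, with an SD of 0.08 for Hsp90b1, which only 2.2% of genes undercut, and of 0.12 for Hspa5, 0.13 for Calr and 0.12 for Pdia4. Over all genes the median SD was 0.21, and Xbp1 and Asns lay just under it at 0.19 and 0.20. Every member rested on at least 154 counts in each library, up to 14670 for Atf5.

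The ER chaperones come first. Hspa5 (ENSMUSG00000026864, chromosome 2, 34771970 to 34777547, plus strand, GRCm38 as all positions of genes here) encodes BiP, the abundant HSP70 chaperone of the ER that also holds the stress sensors inactive. In WT replicates 1 to 5 its level was 230.3, 272, 212, 232 and 244 CPM. In iFAXLKO it ran from 188 to 242 CPM with a median of 225 CPM. WT 2 was the highest library and iFAXLKO 3 the lowest, 7 of the 8 iFAXLKO libraries lay below the WT mean, and the groups overlapped. The means were 224 ± 17.1 CPM (SD, n = 8) and 238 ± 22.1 CPM (SD, n = 5), with a log2 fold change of -0.09 (SE 0.08, edgeR adjusted p = 0.872, exact permutation p = 0.241), which was -0.04 without WT 2.

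Hsp90b1 (ENSMUSG00000020048, chromosome 10, 86690209 to 86705509, minus strand) encodes GRP94, the HSP90 chaperone of the ER. In WT its level was 239, 231, 221, 239 and 246 CPM, and in iFAXLKO it ran from 195 to 238 CPM with a median of 213 CPM. In 1 of 8 iFAXLKO libraries, replicate 5, the level was above the WT mean, and the ranges overlapped between 221 and 238 CPM. With means of 214 ± 13.4 CPM (SD, n = 8) and 235 ± 9.64 CPM (SD, n = 5), the log2 fold change was -0.13 (SE 0.07, 95% interval -0.28 to 0.01). The exact permutation test on log2 CPM gave p = 0.0163, unadjusted for the 10 members, whereas edgeR gave p = 0.0625 and an adjusted p of 0.698. Its interval was the narrowest of the members with a fold of 0.911 (0.826 to 1.01). Gm15344, which overlaps Hsp90b1 on the same strand, had 10.7% as many counts.

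Calr (ENSMUSG00000003814, chromosome 8, 84841850 to 84846934, minus strand) encodes calreticulin, a lectin chaperone that binds glycoproteins and stores calcium. WT libraries gave 301.7, 382, 309, 318 and 296 CPM and iFAXLKO libraries 273 to 361 CPM with a median of 312 CPM. WT 2 stood above all others, and without it the remaining WT values fell inside the iFAXLKO range. The means were 313.3 ± 26.1 CPM (SD, n = 8) and 321 ± 34.97 CPM (SD, n = 5), and the log2 fold change was -0.04 (SE 0.08, edgeR adjusted p = 0.969, exact permutation p = 0.664). Its sign was not settled, the value being 0.03 without WT 2 and, with WT 2 kept, 0.03 by limma-voom.

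Pdia4 (ENSMUSG00000025823, chromosome 6, 47796141 to 47813430, minus strand) encodes ERp72, a disulfide isomerase of the ER. Its level was 34.1, 33.8, 28.5, 34.4 and 32.0 CPM in WT and 28.7 to 38.5 CPM in iFAXLKO with a median of 32.5 CPM. WT 3 was the lowest library and iFAXLKO 4 the highest, and the iFAXLKO range covered all WT values but that of WT 3. The log2 fold change of 0.02 (SE 0.08, edgeR adjusted p = 0.981, exact permutation p = 0.796) had a 95% interval of -0.14 to 0.18, on means of 33.0 ± 2.99 CPM (SD, n = 8) and 32.6 ± 2.46 CPM (SD, n = 5).

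**Figure D2:**
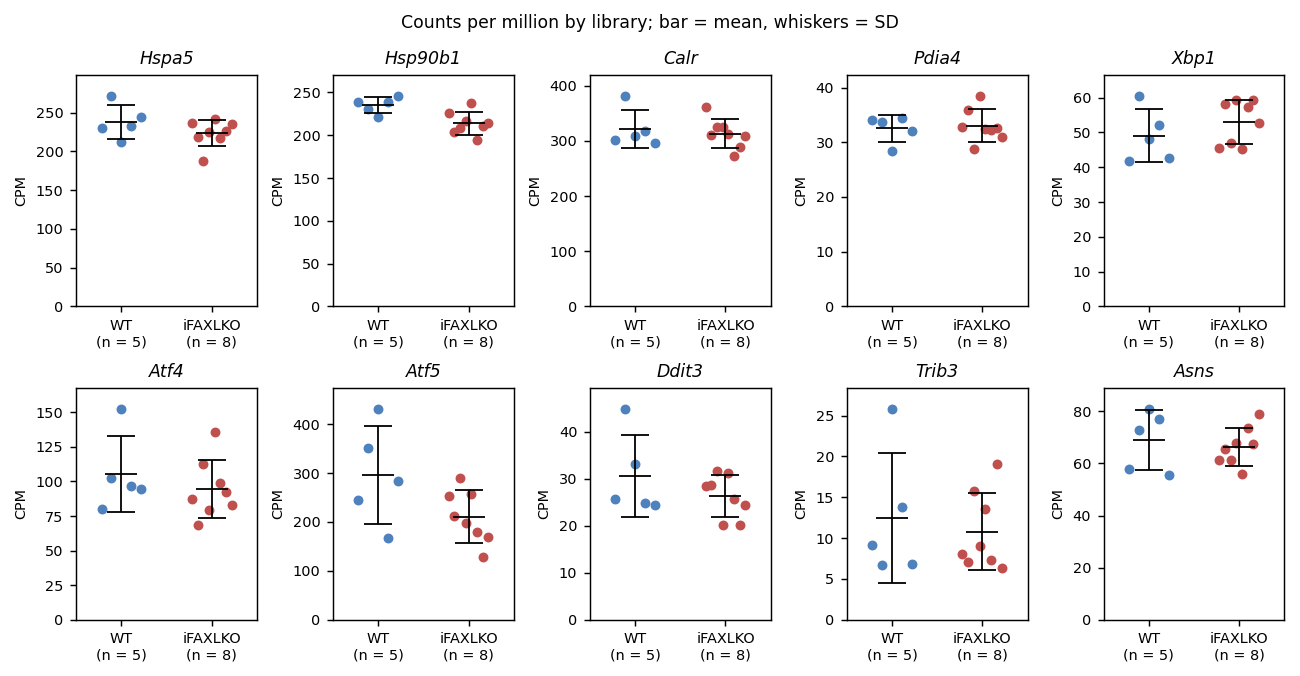
CPM of each member in 5 WT (blue) and 8 iFAXLKO (red) libraries, with a separate linear axis from 0 in each panel, a bar at the group mean and whiskers of 1 SD. The groups overlap in all 10 panels, and single WT libraries stand high for Hspa5, Calr, Atf4, Atf5, Ddit3 and Trib3.

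Among the transcription factors, Xbp1 (ENSMUSG00000020484, chromosome 11, 5520659 to 5525893, plus strand) had the highest log2 fold change of the members. WT libraries gave 41.9, 60.6, 48.1, 52.3 and 42.6 CPM, and iFAXLKO libraries 45.1 to 59.4 CPM with a median of 55.0 CPM. Both the highest library (WT 2) and the lowest (WT 1) were WT, so that the iFAXLKO range lay inside the WT range, and 5 of 8 iFAXLKO libraries were above the WT mean. The log2 fold change was 0.11 (SE 0.11, edgeR adjusted p = 0.880, exact permutation p = 0.307) on means of 53.0 ± 6.35 CPM (SD, n = 8) and 49.1 ± 7.69 CPM (SD, n = 5), and it was 0.20 without WT 2. The counts do not separate the spliced from the unspliced form.

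Atf4 (ENSMUSG00000042406, chromosome 15, 80255184 to 80257541, plus strand), the central factor of the integrated stress response, had 80.3, 102, 153, 97.0 and 94.5 CPM in WT. In iFAXLKO its level ran from 68.2 to 136 CPM with a median of 89.8 CPM. WT 3 and iFAXLKO 5 were the highest libraries, and iFAXLKO 2 the lowest. The means were 94.7 ± 21.2 CPM (SD, n = 8) and 105 ± 27.6 CPM (SD, n = 5), for a log2 fold change of -0.15 (SE 0.17, edgeR adjusted p = 0.901, exact permutation p = 0.439), which was 0.03 without WT 3.

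Atf5 (ENSMUSG00000038539, chromosome 7, 44812256 to 44816658, minus strand), a factor raised through eIF2α phosphorylation and tied to mitochondrial protein stress, had the lowest log2 fold change of the members. In WT it stood at 246, 352, 432, 168 and 284 CPM. In iFAXLKO it ran from 128 to 290.4 CPM with a median of 205 CPM, and each of the 8 libraries was below the WT mean. WT 2 and WT 3 lay above every iFAXLKO library, but WT 4 lay below 7 of the 8. The means were 211 ± 53.7 CPM (SD, n = 8) and 296 ± 101 CPM (SD, n = 5), and the log2 fold change was -0.49 (SE 0.22, 95% interval -0.95 to -0.03). The unadjusted edgeR p of 0.0392 became 0.641 after adjustment over all genes, and the exact permutation p was 0.0971. The value was -0.26 by limma-voom, -0.30 without WT 3 and, chosen after seeing the data, -0.14 without both WT 2 and WT 3. Nup62, which overlaps Atf5 on the opposite strand, had 11.2% as many counts, and the strand setting of the counting is not stated.

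Ddit3 (ENSMUSG00000025408, chromosome 10, 127290774 to 127296288, plus strand) encodes CHOP, a factor linked to cell death under lasting ER stress. WT libraries gave 25.6, 44.9, 33.2, 24.8 and 24.5 CPM and iFAXLKO libraries 20.1 to 31.6 CPM with a median of 27.1 CPM. WT 2 and WT 3 again lay above all iFAXLKO libraries, while the other WT libraries lay within their range. The means were 26.3 ± 4.504 CPM (SD, n = 8) and 30.6 ± 8.74 CPM (SD, n = 5), with a log2 fold change of -0.22 (SE 0.16, edgeR adjusted p = 0.814, exact permutation p = 0.293), which was -0.04 without WT 2. Mars, which overlaps Ddit3 on the opposite strand, had 219% as many counts, and a second identifier with the symbol Ddit3 had 9.39%, so reads of these genes may not be fully separated.

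Trib3 and Asns are targets of ATF4. Trib3 (ENSMUSG00000032715, chromosome 2, 152337422 to 152344032, minus strand), a pseudokinase that feeds back on ATF4 and restrains AKT, had 9.16, 6.69, 25.8, 13.9 and 6.87 CPM in WT and 6.33 to 19.1 CPM in iFAXLKO with a median of 8.57 CPM. WT 3 and iFAXLKO 7 were far above the median of either group. The log2 fold change was -0.22 with the largest SE of the members, 0.37 (95% interval -1.02 to 0.59, edgeR adjusted p = 0.948, exact permutation p = 0.752), and 0.25 without WT 3. Folds from 0.492 to 1.5 lay within the interval of Trib3, on means of 10.8 ± 4.74 CPM (SD, n = 8) and 12.5 ± 8.00 CPM (SD, n = 5).

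Asns (ENSMUSG00000029752, chromosome 6, 7675169 to 7693254, minus strand) encodes asparagine synthetase. Its level was 57.8, 72.7, 80.9, 77.2 and 55.5 CPM in WT, and 56.0 to 78.9 CPM in iFAXLKO with a median of 66.5 CPM. The iFAXLKO values lay inside the WT range, whose ends were WT 5 and WT 3. With means of 66.5 ± 7.30 CPM (SD, n = 8) and 68.8 ± 11.5 CPM (SD, n = 5), the log2 fold change was -0.05 (SE 0.11, edgeR adjusted p = 0.964, exact permutation p = 0.708), and it was 0.03 without WT 3.

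A pair of WT libraries held most of the highest values of the members. WT 2 was the highest of the 13 libraries for Hspa5, Xbp1, Ddit3 and Calr, and WT 3 for Atf4, Atf5, Trib3 and Asns, which makes 8 of 10 members. How many of all genes tested were highest in these libraries was not counted, so this number is not shown to be particular to the members. WT 2 also had the highest sum of brown adipocyte markers (23454 CPM). Its TMM factor, by which library totals are scaled, was the lowest of the 13 at 0.897, which raises every CPM of WT 2. The highest factor was 1.06 (iFAXLKO 4). With library sizes that leave out mitochondrially encoded and the 10 most abundant genes, log2 fold changes were -0.04 for Hspa5 and -0.09 for Hsp90b1, in place of -0.09 and -0.13. WT 2 and WT 3 did not share one profile. Relative to the mean of each gene, log2 CPM of Trib3 was 1.32 in WT 3 and -0.62 in WT 2, and that of Hspa5 was -0.11 in WT 3 and 0.25 in WT 2. Hsp90b1 was highest in WT 5 and Pdia4 in iFAXLKO 4.

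**Figure D3:**
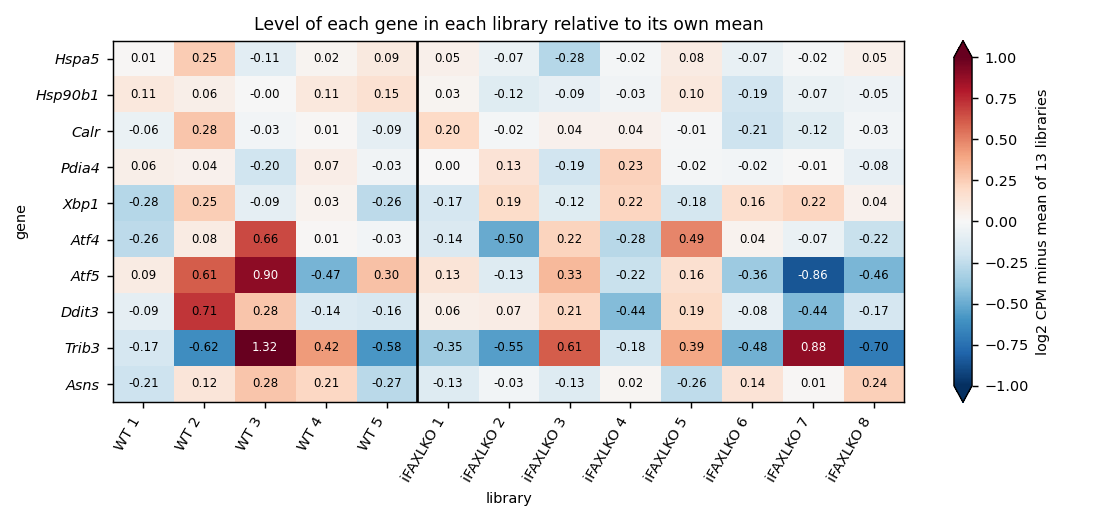
Log2 CPM of each member in each library minus the mean of the gene over 13 libraries (colour and number), with 5 WT libraries left of the black line and 8 iFAXLKO libraries right of it. WT 3 holds the highest cells for Atf4 (0.66), Atf5 (0.90), Trib3 (1.32) and Asns (0.28), and WT 2 those for Hspa5 (0.25), Calr (0.28), Xbp1 (0.25) and Ddit3 (0.71).

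The sample descriptions give each library a number, and for comparison these were cut into a lower and an upper range. The lower range holds 7 libraries (4 iFAXLKO and 3 WT, WT 2 and WT 3 among them) and the upper 6 (4 iFAXLKO and 2 WT). The cut was set here and is not given by the labels. It does not lie at the widest gap between the numbers, and WT 3 stands apart from its neighbours on both sides. All values by range are given for this cut alone. The labels do not say what the number marks. Within the ranges the difference of mean log2 CPM, iFAXLKO minus WT, was -0.13 and -0.05 for Hspa5, -0.11 and -0.18 for Hsp90b1, -0.50 and -0.30 for Atf5, and 0.07 and 0.18 for Xbp1, so these kept their direction. For the other 6 it had opposite signs, as for Atf4 with -0.33 and 0.07, Ddit3 with -0.32 and 0.02, Trib3 with -0.30 and 0.10, and Asns with -0.13 and 0.06. Calr (0.00 and -0.05) and Pdia4 (0.08 and -0.05) differed little in either range.

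**Figure D4:**
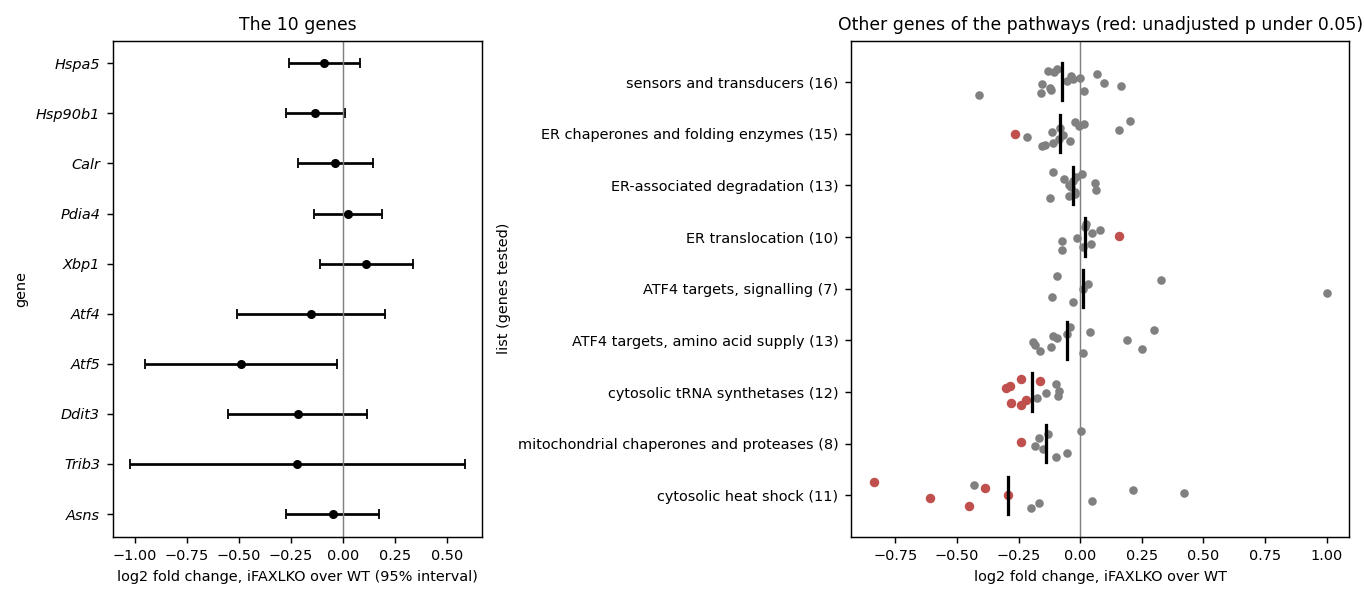
Left, log2 fold change (iFAXLKO over WT) of each member with its 95% interval. Right, log2 fold changes of the other genes of 9 lists (number tested in brackets), with points in red at an unadjusted p under 0.05 and a bar at the median of the list. Of the members, the interval of Atf5 alone leaves out 0, and all 12 cytosolic tRNA synthetases lie below 0.

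The wider pathways were read through lists of other genes. None of the 9 lists held a gene called by edgeR, and DESeq2 called 1 gene in them, Nars. Of the sensors and transducers, 12 of 16 were below 0 (median -0.07) and 0 had an unadjusted p under 0.05. Atf6, the membrane-bound factor, had a log2 fold change of -0.16 (SE 0.08, edgeR adjusted p = 0.709) and Eif2ak3, which encodes PERK, of -0.15 (SE 0.09, edgeR adjusted p = 0.748). Among 15 other ER chaperones and folding enzymes, 12 were below 0 (median -0.08) and 1 had an unadjusted p under 0.05, which was Hyou1, the exchange factor of BiP. Hyou1 was measured at 91.8 ± 9.05 CPM (SD, n = 8, range 72.9 to 100.6) and 110.4 ± 6.40 CPM (SD, n = 5, range 101 to 118), so that its groups did not overlap, but its log2 fold change of -0.27 (SE 0.08) had an edgeR adjusted p of 0.439. Canx, the membrane lectin that partners calreticulin, had -0.15, whereas the isomerase genes Txndc5 and P4hb had 0.20 and 0.16.

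Of 13 genes of ER-associated degradation that were tested, 10 were below 0 (median -0.03), with 0 at an unadjusted p under 0.05. Vcp, the ATPase that pulls proteins out of the ER, had a log2 fold change of -0.11. ER translocation was the list with the most genes above 0, 7 of 10 (median 0.02). There, Spcs3, a subunit of the signal peptidase, had 18.9 ± 1.03 CPM (SD, n = 8) and 16.9 ± 1.56 CPM (SD, n = 5), each of the 8 iFAXLKO libraries being above the WT mean. Its unadjusted edgeR p of 0.0455, in a direction that 3.84% of all genes shared at that limit, became 0.658 after adjustment.

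Downstream of ATF4, the signalling targets showed 4 of 7 above 0 (median 0.01) and the amino acid supply genes 5 of 13 (median -0.05), with 0 at an unadjusted p under 0.05 in both. Ddit4, which restrains mTORC1, had the largest log2 fold change of these lists, with 30.7 ± 19.4 CPM (SD, n = 8) and 15.3 ± 6.64 CPM (SD, n = 5), for a log2 fold change of 1.00 (SE 0.49, edgeR adjusted p = 0.698) with ranges of 11.03 to 59.8 and 10.2 to 25.7 CPM. Vldlr, a lipoprotein receptor, had -0.09, Stc2, a secreted glycoprotein, 0.33 and Chac1, which degrades glutathione, -0.11. In amino acid supply, Shmt2, the mitochondrial serine hydroxymethyltransferase, had -0.11, and Slc6a9 (a glycine transporter), Cth (of cysteine synthesis) and Psat1 (of serine synthesis) had 0.30, 0.25 and 0.19. Fgf21 and Gdf15, the secreted signals of the integrated stress response, did not pass the filter on low counts.

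The cytosolic tRNA synthetases, several of which ATF4 is known to drive, lay on the same side of 0. All 12 had a log2 fold change below 0, beside 53.6% of all genes, with a median of -0.20, and 7 had an unadjusted p under 0.05 in that direction, beside 3.54% of all genes, but 0 were called by edgeR. Nars had 60.4 ± 4.57 CPM (SD, n = 8, range 54.5 to 68.5) and 74.5 ± 6.01 CPM (SD, n = 5, range 65.0 to 81.7), for a log2 fold change of -0.30 (SE 0.07, edgeR adjusted p = 0.252, exact permutation p = 0.00155), and DESeq2 called it with an adjusted p of 0.0166. Sars had -0.29, Aars -0.24 and Eprs -0.22. Summed over the list, CPM ran from 611 to 716 in iFAXLKO and from 668 to 837 in WT, with WT 2 and WT 3 at the top (824 and 837 CPM) and WT 4 inside the iFAXLKO range. The median without WT 3 was -0.15.

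Stress lists outside the ER were read for comparison. Of 8 mitochondrial chaperones and proteases, 7 were below 0 (median -0.14), and Lonp1, the matrix protease, had 284 ± 23.5 CPM (SD, n = 8) and 335 ± 28.1 CPM (SD, n = 5), for a log2 fold change of -0.24 (SE 0.08, edgeR adjusted p = 0.507). Of 11 cytosolic heat shock genes, 8 were below 0 (median -0.29) and 3 above it (up to 0.42). In the lower direction 5 had an unadjusted p under 0.05, beside 3.54% of all genes, and 0 were called. These 5 included Hsp90aa1 at -0.61 (SE 0.19, edgeR adjusted p = 0.462), Hsph1 at -0.84 and Hspa8 at -0.39. Summed CPM of the list varied within the groups, from 2557 to 4658 in iFAXLKO and from 3637 to 5211 in WT. The fibroblast and macrophage markers, with median log2 fold changes of 0.66 and 0.41, moved with the same groups, and their part in these values was not tested beyond a covariate. A fit with the fibroblast score as a covariate was added after seeing the data, and the score itself was above the WT mean in 8 of 8 iFAXLKO libraries. In that fit the log2 fold change of Atf5 was -0.16 (SE 0.33) in place of -0.49 (SE 0.22). That of Ddit3 was -0.08 (SE 0.23) in place of -0.22 (SE 0.16). That of Atf4 was -0.02 (SE 0.25) in place of -0.15 (SE 0.17), and that of Trib3 -0.70 (SE 0.54) in place of -0.22 (SE 0.37). For every member the SE was larger than without the covariate, so these shifts are not set apart from error. Hspa5 and Asns were at -0.06 and -0.10 in place of -0.09 and -0.05, and Xbp1 and Pdia4 turned to -0.07 and -0.11 from 0.11 and 0.02. Outside the members, Hsp90aa1 was at -0.18, Nars at -0.17 and Hyou1 at -0.20, and 0 members were called.

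Whether members of one arm vary together between mice was tested for 8 pairs of genes by permutation over 13 libraries, with group means subtracted from log2 CPM and p adjusted over the 8. None passed. Atf4 and Trib3 came closest with Pearson r = 0.67 (permutation p = 0.0127, adjusted p = 0.102) and Spearman rho = 0.56 (permutation p = 0.0492, adjusted p = 0.197). It was 0.42 without WT 3 and iFAXLKO 5, the libraries farthest from the median of Atf4, and 0.85 and 0.36 within the lower and the upper range of library numbers. Atf4 and Asns had r = 0.09 (permutation p = 0.769, adjusted p = 0.879), with 0.53 in the lower and -0.65 in the upper range, and rho = 0.15 (permutation p = 0.628, adjusted p = 0.837).

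Hspa5 and Hsp90b1 had r = 0.48 (permutation p = 0.0935, adjusted p = 0.327) and rho = 0.57 (permutation p = 0.0467, adjusted p = 0.197). Without WT 2 and iFAXLKO 3, the libraries farthest out in Hspa5, r was 0.89, and it was 0.51 and 0.91 within the ranges. Hspa5 and Pdia4 had r = 0.45 (permutation p = 0.123, adjusted p = 0.327) and rho = 0.20 (permutation p = 0.516, adjusted p = 0.826), and r was 0.06 without the same libraries and 0.68 and -0.46 within the ranges. Hspa5 and Calr had r = 0.39 (permutation p = 0.188, adjusted p = 0.376) and rho = 0.38 (permutation p = 0.204, adjusted p = 0.543), with r = 0.31 without those libraries, 0.04 without WT 2 alone, and 0.74 and 0.66 within the ranges.

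The remaining pairs, Ddit3 with Trib3, Atf5 with Asns and Xbp1 with Hspa5, had r = -0.05, -0.21 and 0.22 (permutation p = 0.881, 0.486 and 0.479, adjusted p = 0.881, 0.647 and 0.647). Their rho was -0.05, -0.24 and 0.07 (permutation p = 0.865, 0.426 and 0.819, adjusted p = 0.865, 0.826 and 0.865). Without the libraries farthest out in the gene named first, r was -0.03, -0.60 and 0.26. Of the 8 pairs, 4 had opposite signs in the ranges of library numbers.

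**Figure D5:**
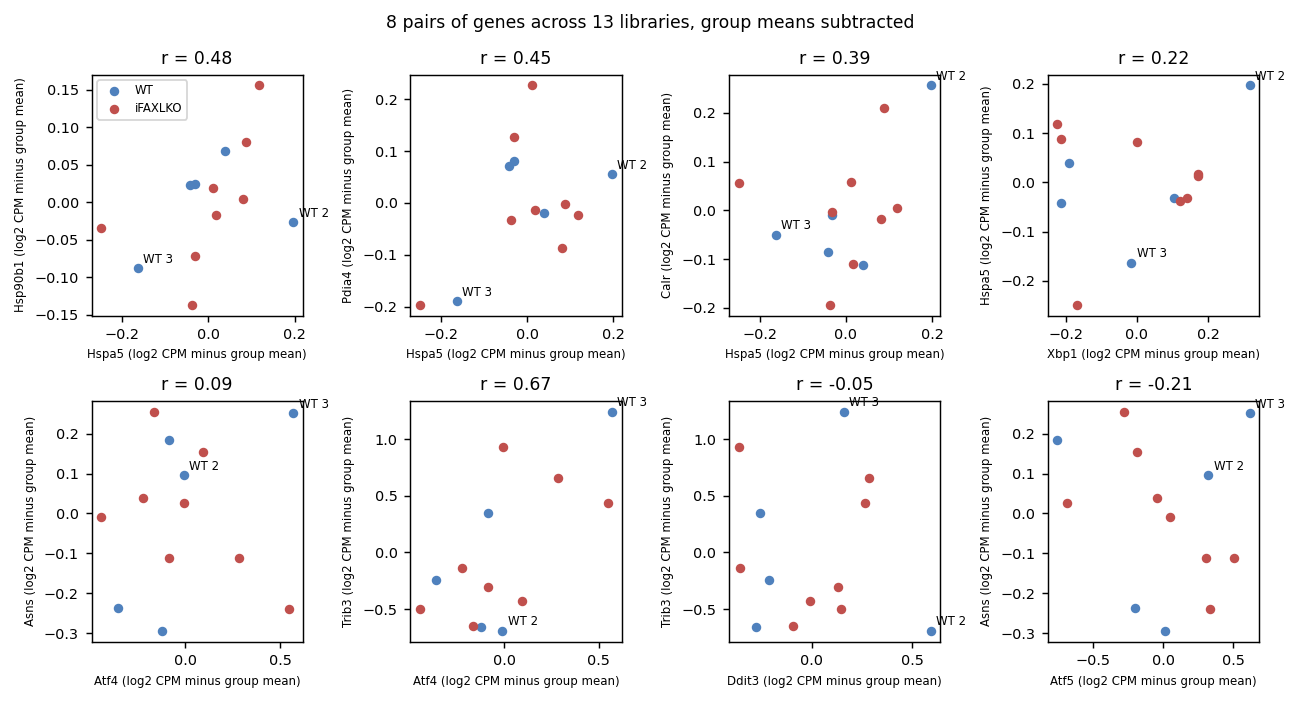
The 8 pairs of members across 13 libraries, each axis giving log2 CPM minus the group mean, with 5 WT (blue) and 8 iFAXLKO (red) libraries and WT 2 and WT 3 named. The points lie along a rising line for Atf4 and Trib3 (r = 0.67), where WT 3 is at the upper right, and show little relation for Atf4 and Asns (r = 0.09) or Ddit3 and Trib3 (r = -0.05).

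All 45 pairs of members were also read, a choice made after seeing the data, and 0 passed with p adjusted over the 45, while 8 had an unadjusted permutation p under 0.05. Atf5 and Ddit3 were the closest, with r = 0.74 (permutation p = 0.00374, adjusted p = 0.168), rho = 0.79 (permutation p = 0.00195, adjusted p = 0.0877), r = 0.70 without WT 3 and iFAXLKO 7, and r = 0.67 and 0.78 within the ranges of library numbers. Both genes were lowest in iFAXLKO 7, the library with the lowest sum of brown adipocyte markers (14788 CPM). Ddit3 was highest in WT 2, that with the highest sum (23454 CPM). Other libraries did not follow this order. Atf5 was highest in WT 3 (17300 CPM of markers) and at 169 CPM in iFAXLKO 8 (19421 CPM of markers). With group means subtracted, r to the mean log2 CPM of these markers over 13 libraries was 0.82 for Ddit3 and 0.67 for Atf5. Among the other members it ran from -0.42 for Trib3 to 0.59 for Calr. Such r was computed for every member with each marker list, without a p, so the high values are picked from many. To macrophage markers it ran from -0.27 for Atf5 to 0.68 for Trib3. To fibroblast markers it ran from -0.38 for Atf5 to 0.54 for Pdia4. The part of adipocyte content, or of other cells, in the pair of Atf5 and Ddit3 was not tested.

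Among the genes whose pattern was most like that of Hspa5, by Pearson r over 13 libraries with group means subtracted, were Bms1 (0.84), Pelp1, Tubb6 and Pdia3 (0.83 each), of which Pdia3 encodes a disulfide isomerase of the ER. Those most like Asns were Wdr25 (0.92), Faap100 (0.90), Fibin (0.87), Smg5 and Hgh1 (0.86 each). They come from the top of 13360 genes on the same libraries and are given as a description.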

How the data were processed

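The deposited files hold raw read counts per Ensembl gene identifier, 1 file per library. The submitters' processing notes name bcl2fastq 2.20, fastp 0.20.0, STAR 2.7.4a, DESeq2 and GRCm38.p6, whereas the study's methods name Trim Galore and hisat2. How reads were counted, and with which strand setting, is not given in the sources used here, which bears on genes that overlap others. The labels give polyadenylated RNA and the methods depletion of ribosomal RNA. Symbols and positions came from GENCODE M21 (GRCm38), and promoters from RefSeq. Of identifiers with the symbol Ddit3, 2 in number, the one with the longer exons was used.

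From the counts, CPM with TMM factors were computed. The 13360 genes above 1 CPM in 5 or more libraries were tested with edgeR 4.0.16 (limma 3.58.1, R 4.3.3), by the 2-sided quasi-likelihood F test with robust dispersions and Benjamini-Hochberg adjustment over all of them. "Called" means an adjusted p under 0.05. SE is the size of the log2 fold change over the square root of F, and log2 CPM had 2 as prior count. Exact permutation tests on mean log2 CPM, 2-sided, ran over all 1287 splits into 8 and 5 (smallest p 0.000777), and correlations were tested with 100000 permutations. The lowest chi-square between libraries of a group was 18.4 per degree of freedom, so each was counted as 1 replicate. Each library is described as its own sample, but the labels do not state separate animals in so many words. A supplementary legend of the study gives n = 8 iFAXLKO and n = 5 floxed Cre-negative female mice for this sequencing. The p-values measure the spread between these samples.

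Members, lists and tests were chosen with earlier results of these data known. Named genes are the members, up to 4 genes of each list with the smallest p, and the 5 most like Hspa5 and Asns, and some genes that met this rule are not reported here. The alternatives were DESeq2 1.42.0, weighted limma-voom, upper quartile or RLE factors, library sizes that leave out mitochondrially encoded genes and the 10 most abundant, filterByExpr, no filter beyond 1 count, the replicate number as a block, covariates for library number range and a muscle score, and each library left out. A fibroblast covariate, the removal of both WT 2 and WT 3, and all 45 pairs were added after seeing the data.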

Additional observations from a re-analysis of the deposited data

Results flagged for a closer look

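Of the 20 sets of values, 10 members in either group, 2 held a library that Dixon's test at the 95% level set apart from the rest of its group, and chance alone would mark about 1 in 20. Hspa5 in iFAXLKO 3, at 188 CPM, was the lowest of the 8 iFAXLKO libraries, the next being 217 CPM. Calr in WT 2, at 382 CPM, was the highest of the 5 WT libraries, the next being 318 CPM.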

How the results depend on the processing

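The count of members called was 0 under each of the 12 alternatives and in each of the 13 fits that left out 1 library. Over all genes, 17 were called, against 67 by DESeq2, 7 with the replicate block and 9 with the fibroblast covariate. DESeq2 called 1 tRNA synthetase in place of 0. Signs of small log2 fold changes turned as follows, the cause not being tested. With the fibroblast covariate Xbp1 was -0.069 (SE 0.14) and Pdia4 -0.11 (SE 0.10). Without both WT 2 and WT 3, Atf4 was 0.064, Ddit3 0.075, Trib3 0.11, Asns 0.066, Calr 0.038 and Pdia4 -0.020. Calr was also 0.029 by limma-voom, 0.018 with library sizes without abundant genes and 0.030 with the replicate block. Libraries with the same replicate number in both groups had correlations of deviations of 0.39, 0.42, 0.19, 0.18 and -0.61. No correlations of differently numbered libraries were set beside these, so they cannot decide whether the numbers pair the libraries. With the block Atf5 was -0.23 and 0 members were called. Leaving out 1 library gave -0.25 to 0.034 for Atf4, -0.39 to 0.25 for Trib3, -0.12 to 0.030 for Asns (each above 0 without WT 3), -0.068 to 0.033 for Calr (above 0 without WT 2), -0.0078 to 0.048 for Pdia4 (below 0 without iFAXLKO 4 or WT 3), -0.64 to -0.30 for Atf5, -0.11 to -0.038 for Hspa5 and 0.060 to 0.20 for Xbp1, the upper end of both without WT 2. For pairs it gave r of -0.12 to 0.38 for Xbp1 and Hspa5 (below 0 without WT 2), -0.23 to 0.40 for Atf4 and Asns, -0.20 to 0.25 for Ddit3 and Trib3, and 0.48 to 0.75 for Atf4 and Trib3, which passed (adjusted p = 0.0441 by permutation) without iFAXLKO 7. The count of members at an unadjusted p under 0.05 was 0 to 2, being 2 (Atf5 and Hsp90b1) by DESeq2 and without iFAXLKO 5.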
